A study of Mus musculus with 8 samples.

Results

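The genes described here are 10 components of transforming growth factor beta (TGF-beta) signaling, namely the ligands *Tgfb1*, *Tgfb2* and *Tgfb3*, the latency protein *Ltbp1*, the receptors *Tgfbr1* and *Tgfbr2*, and the intracellular proteins *Smad2*, *Smad3*, *Smad4* and *Smad7*. They were taken by gene symbol from a kidney RNA-seq table of 55401 genes, and all 10 were listed there. Of the 15150 genes that were high enough to be tested, 9 were among these 10, and *Tgfb2* was not. The kidneys came from 8 diabetic mice, 4 treated with rFGF4 (mice 1, 2, 3 and 5), a recombinant form of fibroblast growth factor 4, and 4 treated with vehicle (mice 2, 3, 4 and 5). Both groups were diabetic and no non-diabetic kidney was sequenced, so the comparison asks whether treatment changed these genes within diabetes and not what diabetes did to them. The sample labels give the vehicle group as a *db*/*db* model, in which the leptin receptor is defective, and the other group only as rFGF4 treatment, whereas the study's text describes the sequenced animals as made diabetic with streptozotocin, a toxin of pancreatic beta cells. The column headers of the vehicle libraries also read db. The deposited labels and the study's text thus disagree, and the model stays undecided here. The mice were male, the source texts do not tie an age to the sequenced libraries, and the methods describe injection into the abdominal cavity every other day.

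TGF-beta ligands are secreted in a latent form, bound to their own propeptide and to latency proteins such as LTBP1 that hold the complex in the extracellular matrix. Once released, a ligand brings together the type II receptor TGFBR2 and the type I receptor TGFBR1, which phosphorylates SMAD2 and SMAD3, and these enter the nucleus with SMAD4 to bind regulatory DNA, while SMAD7 is induced by the pathway and shuts the receptor down. In the kidney, TGF-beta signaling is best known for driving matrix deposition by fibroblasts and mesangial cells and for harming podocytes, the filtering cells of the glomerulus. Because much of this control acts on latency, phosphorylation and protein turnover, transcript levels describe the supply of the components and not the activity of the pathway.

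To show the kind of start region from which these transcripts arise, the promoter is printed for 3 genes with different roles, the ligand gene *Tgfb1*, the receptor gene *Tgfbr2* and the SMAD gene *Smad3*. Each is 250 bases before to 50 bases after the RefSeq start site, on GRCm38.p6, read 5′ to 3′ on the strand of the gene, at chr7:25686752-25687051 on the plus strand for *Tgfb1*, chr9:116175314-116175613 on the minus strand for *Tgfbr2* and chr9:63757945-63758244 on the minus strand for *Smad3*. Capitals mark the GC box GGGCGG (or CCGCCC on the other strand) and the SMAD box CAGAC (or GTCTG).
Tgfb1 promoter: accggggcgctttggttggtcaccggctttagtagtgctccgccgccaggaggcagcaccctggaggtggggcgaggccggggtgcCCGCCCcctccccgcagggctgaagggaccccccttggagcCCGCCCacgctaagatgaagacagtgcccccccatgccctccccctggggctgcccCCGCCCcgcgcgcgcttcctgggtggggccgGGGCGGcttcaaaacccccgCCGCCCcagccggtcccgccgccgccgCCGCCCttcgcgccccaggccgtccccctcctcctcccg
Tgfbr2 promoter: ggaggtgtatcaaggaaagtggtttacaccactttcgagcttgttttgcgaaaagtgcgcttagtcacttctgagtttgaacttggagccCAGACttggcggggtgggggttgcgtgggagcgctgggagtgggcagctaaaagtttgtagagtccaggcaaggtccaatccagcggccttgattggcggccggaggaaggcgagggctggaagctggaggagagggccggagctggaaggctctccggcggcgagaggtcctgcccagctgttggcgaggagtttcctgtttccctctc
Smad3 promoter: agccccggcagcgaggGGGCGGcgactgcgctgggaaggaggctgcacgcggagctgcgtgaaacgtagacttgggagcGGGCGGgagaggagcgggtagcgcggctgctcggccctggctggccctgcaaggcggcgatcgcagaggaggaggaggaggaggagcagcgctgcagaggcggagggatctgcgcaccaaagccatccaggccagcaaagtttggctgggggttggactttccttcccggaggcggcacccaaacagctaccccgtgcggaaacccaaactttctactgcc
The *Tgfb1* window was 77% G or C and held 6 GC boxes, the *Smad3* window was 67.7% G or C and held 2, and the *Tgfbr2* window was 59% G or C and held 1 SMAD box and no GC box. The median G or C content of all 32851 promoters in the RefSeq table was 52.7%, 35.7% of them held a GC box and 49.6% held a SMAD box. The AP-1 motif TGANTCA, held by 7.81% of all promoters, was not found in any of the 8 entries that the table holds for 6 of the 10 genes. Of these 8 entries, 5 held a SMAD box and 3 a GC box. The matches describe letters within these windows and say nothing of binding in these kidneys.

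None of the 9 tested genes differed between rFGF4- and vehicle-treated mice after adjustment over all tested genes, and for each of the 10 the values of the groups overlapped, whereas they did not for 3.33% of all tested genes, 2.66% with higher values in rFGF4-treated mice. *Smad2* (1.59-fold by group means) had an unadjusted p under 0.05 and was the only one of the 9 to do so (4.62% of all tested genes did in either direction, 3.56% with higher and 1.06% with lower values in rFGF4-treated mice). All 9 had higher fitted means in rFGF4-treated mice, but so did 67.1% of all tested genes, and after scaling of the libraries to a common median ratio 8 of the 9 did. The highest value of 9 of the 10 genes was that of rFGF4 mouse 1. In whole tissue, fewer cells of a type and less RNA per cell cannot be told apart, and the p-values measure the spread between these mice, from each of which 1 library was made.

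Expression was deposited as FPKM (fragment counts divided by exon length and by the mapped total), without counts, which leaves the depth behind each value unknown. Summed over all genes it came to 389407 to 529835 per rFGF4-treated mouse and 481321 to 552604 per vehicle-treated mouse. Transcripts of the mitochondrial genome took 19.0%, 24.7%, 29.8% and 36.0% of the sum in rFGF4 mice 1, 2, 3 and 5 and 38.4%, 34.2%, 37.2% and 24.4% in vehicle mice 2, 3, 4 and 5. The labelled tissue held its defining genes, since all 7 proximal tubule markers were detected in every library. However, their summed FPKM was 355 in rFGF4 mouse 1 and between 1132 and 2187 in the other 7 mice, and each of the 7 markers was lowest in rFGF4 mouse 1. Some results are also given without rFGF4 mouse 1 and vehicle mouse 5, a choice made after seeing the data. Vehicle mouse 5, at 1342, was not the lowest of its group in these markers.

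*Tgfb1* (ENSMUSG00000002603, chr7:25687002-25705077, plus strand), which encodes the predominant TGF-beta isoform of the adult kidney, was the most abundant of the ligand genes. Its FPKM was 16.3, 7.55, 3.88 and 2.77 in rFGF4 mice 1, 2, 3 and 5 and 2.03, 3.37, 1.76 and 10.1 in vehicle mice 2, 3, 4 and 5. Thus 1 mouse of each group stood high, and the lowest rFGF4-treated mouse lay below 2 of the vehicle-treated mice. The group means were 7.63 ± 6.15 and 4.33 ± 3.94 FPKM (SD, n = 4 each), and the log2 fold change, calculated here and below on the log2(FPKM + 1) scale, was 0.69 with a standard error of 0.58. Its 95% interval ran from -0.64 to 2.01, which spans lower as well as higher values (limma p = 0.268, adjusted p = 0.920, exact permutation p = 0.314). Without rFGF4 mouse 1 the log2 fold change was 0.27, and without vehicle mouse 5 it was 1.12, with neither passing an unadjusted p of 0.05.

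*Tgfb3* (ENSMUSG00000021253, chr12:86056745-86079041, minus strand), a further ligand gene, followed *Tgfb1* closely at a lower level. Its FPKM was 3.26, 1.70, 0.968 and 0.429 in rFGF4 mice 1, 2, 3 and 5 and 0.517, 1.05, 0.333 and 2.19 in vehicle mice 2, 3, 4 and 5. Again rFGF4 mouse 1 and vehicle mouse 5 were the 2 highest and the groups overlapped, with a log2 fold change of 0.32 (standard error 0.38, limma p = 0.423, adjusted p = 0.931, exact permutation p = 0.514). Its exons overlap those of the annotated genes *Gm37804* and *Gm48008*, so that some reads may belong to either. *Tgfb2* (ENSMUSG00000039239, chr1:186622792-186705989, minus strand), the isoform most studied in development, was at 1.61, 0.382, 0.184 and 0.247 FPKM in rFGF4 mice 1, 2, 3 and 5 and at 0.356, 0.390, 0.251 and 1.27 FPKM in vehicle mice 2, 3, 4 and 5. It reached 0.5 FPKM in 2 libraries only, rFGF4 mouse 1 and vehicle mouse 5, and was left out of the test, and it shares exonic sequence with *Gm29491*.

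**Figure D1:**
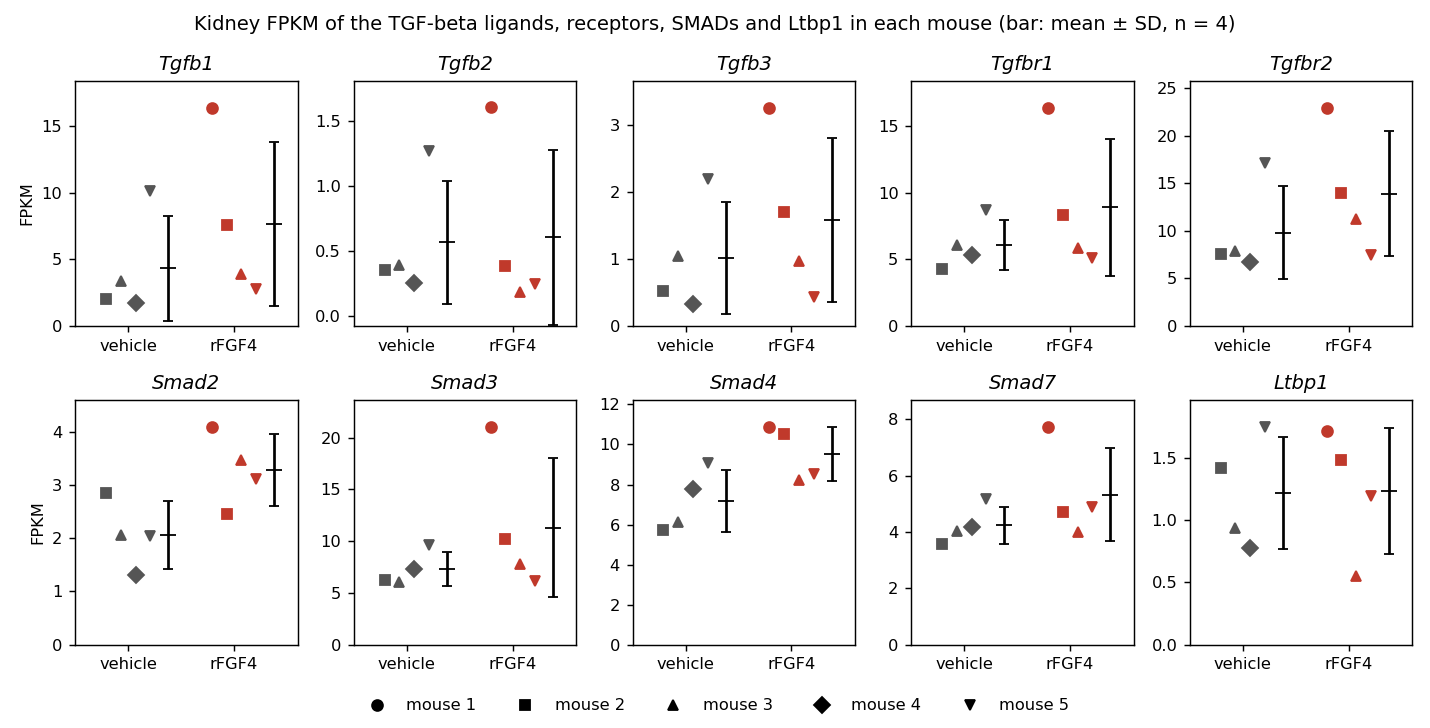
FPKM (linear axes, one scale per gene) of the 10 genes in each vehicle-treated mouse (grey) and rFGF4-treated mouse (red), with symbols for the mouse number and, to the right of each group, the mean ± SD (n = 4). rFGF4 mouse 1 was highest for 9 of the 10 genes, vehicle mouse 5 was highest for *Ltbp1*, and the groups overlapped in each panel.

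The makeup of the ligand transcripts varied less than their sum. The summed FPKM of the 3 ligand genes was 21.2, 9.63, 5.03 and 3.45 in rFGF4 mice 1, 2, 3 and 5 and 2.90, 4.81, 2.34 and 13.6 in vehicle mice 2, 3, 4 and 5. *Tgfb1* made up 77.1%, 78.4%, 77.1% and 80.4% of it in the rFGF4-treated mice and 69.9%, 70.1%, 75.0% and 74.5% in the vehicle-treated mice. These shares did not overlap (78.2% ± 1.57 against 72.4% ± 2.76, SD, n = 4 each), and the exact permutation p was 0.0286, the smallest that 4 mice against 4 can give.

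*Tgfb2* made up 7.58%, 3.97%, 3.66% and 7.15% of the ligand sum in the rFGF4-treated mice and 12.3%, 8.11%, 10.7% and 9.34% in the vehicle-treated mice, also without overlap (5.59% ± 2.06 against 10.1% ± 1.79, SD, n = 4 each, exact permutation p = 0.0286). The share of *Tgfb3* overlapped (16.2% ± 2.95 against 17.5% ± 3.21). These shares were among 8 ratios calculated after the values had been seen, and the adjusted exact p over the 8 was 0.114 for both *Tgfb1* and *Tgfb2*. A share does not depend on how a library is scaled, but the shares of 1 mouse add up to the whole and are not separate results. With 1 mouse left out in turn, the exact p lay between 0.0286 and 0.0857 for either share, and the *Tgfb2* share rests on FPKM values under 0.5 in 6 of the 8 libraries.

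**Figure D2:**
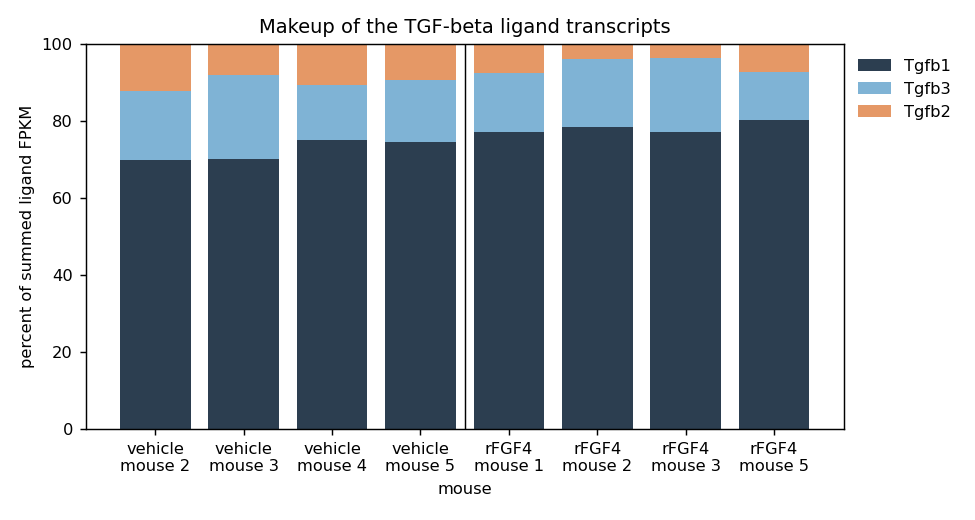
Stacked bars of the percent of the summed ligand FPKM that came from *Tgfb1*, *Tgfb3* and *Tgfb2* in each mouse, with vehicle-treated mice on the left of the line and rFGF4-treated mice on the right. The *Tgfb1* share lay between 77.1% and 80.4% in rFGF4-treated mice and between 69.9% and 75.0% in vehicle-treated mice.

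*Ltbp1* (ENSMUSG00000001870, chr17:75005568-75392512, plus strand), whose product tethers latent TGF-beta to the matrix, showed no shift of its group mean. Its FPKM was 1.72, 1.48, 0.552 and 1.19 in rFGF4 mice 1, 2, 3 and 5 and 1.42, 0.937, 0.773 and 1.75 in vehicle mice 2, 3, 4 and 5, so that the groups covered nearly the same range. The log2 fold change was 0.0012 with a 95% interval from -0.49 to 0.49 (limma p = 0.996, exact permutation p = 1), which spans changes in either direction.

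Both receptor genes had higher means in rFGF4-treated mice, within the spread between mice. *Tgfbr2* (ENSMUSG00000032440, chr9:116084293-116175360, minus strand), for the ligand-binding type II receptor, was at 22.9, 14.0, 11.2 and 7.49 FPKM in rFGF4 mice 1, 2, 3 and 5 and at 7.61, 7.88, 6.71 and 17.1 FPKM in vehicle mice 2, 3, 4 and 5. Among the vehicle-treated mice, mouse 5 stood apart from the other 3, which were all close to the lowest rFGF4-treated mouse. The log2 fold change was 0.45 with a standard error of 0.37 (13.9 ± 6.56 against 9.82 ± 4.87 FPKM, SD, n = 4 each, limma p = 0.254, adjusted p = 0.920, exact permutation p = 0.343). *Tgfbr1* (ENSMUSG00000007613, chr4:47353222-47414931, plus strand), for the type I receptor kinase, was at 16.4, 8.35, 5.86 and 5.13 FPKM in rFGF4 mice 1, 2, 3 and 5 and at 4.25, 6.11, 5.33 and 8.72 FPKM in vehicle mice 2, 3, 4 and 5. Only rFGF4 mouse 1 lay above all vehicle-treated mice, and the log2 fold change was 0.39 with a standard error of 0.34 (limma p = 0.280, exact permutation p = 0.429). It was 0.081 without rFGF4 mouse 1. The ratio of *Tgfbr2* to *Tgfbr1* was 1.61 ± 0.233 in rFGF4-treated and 1.58 ± 0.354 in vehicle-treated mice (SD, n = 4 each), with overlap.

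The receptor-activated SMAD genes differed from each other in which mice were high. *Smad2* (ENSMUSG00000024563, chr18:76241580-76310963, plus strand) was at 4.09, 2.45, 3.46 and 3.11 FPKM in rFGF4 mice 1, 2, 3 and 5 and at 2.86, 2.05, 1.299 and 2.03 FPKM in vehicle mice 2, 3, 4 and 5. Of the 4 rFGF4-treated mice, 3 lay above every vehicle-treated mouse, and rFGF4 mouse 2 lay below vehicle mouse 2. The means were 3.28 ± 0.683 and 2.06 ± 0.636 FPKM (SD, n = 4 each), with a log2 fold change of 0.49, a standard error of 0.19 and a 95% interval from 0.057 to 0.93. The unadjusted limma p was 0.0311, the adjusted p was 0.918 and the exact permutation p was 0.0571.

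This *Smad2* call did not hold under several other treatments of the same values. Once scaled to a common median ratio, the log2 fold change was 0.40 (unadjusted limma p = 0.0609), with an exact permutation p of 0.0571. Without rFGF4 mouse 1 and vehicle mouse 5 it was 0.41, with an unadjusted limma p above 0.05. The unadjusted p rose above 0.05 when any 1 of 6 mice was left out, namely rFGF4 mice 1, 3 and 5 and vehicle mice 3, 4 and 5, with a log2 fold change of at least 0.36 in each case. It stayed under 0.05 without rFGF4 mouse 2 or vehicle mouse 2.

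*Smad3* (ENSMUSG00000032402, chr9:63646767-63757994, minus strand), the receptor-activated SMAD most tied to renal fibrosis in mice, followed *Tgfbr1* more than *Smad2*. Its FPKM was 21.04, 10.2, 7.81 and 6.13 in rFGF4 mice 1, 2, 3 and 5 and 6.20, 6.06, 7.26 and 9.61 in vehicle mice 2, 3, 4 and 5. Here rFGF4 mouse 1 stood far above every vehicle-treated mouse while rFGF4 mouse 5 lay among the lowest, and the log2 fold change was 0.45 with a standard error of 0.33 (11.3 ± 6.71 against 7.28 ± 1.64 FPKM, SD, n = 4 each, limma p = 0.215, exact permutation p = 0.257). It was 0.12 without rFGF4 mouse 1. The ratio of *Smad3* to *Smad2* was 3.38 ± 1.52 and 3.86 ± 1.57 in rFGF4- and vehicle-treated mice (SD, n = 4 each).

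*Smad4* (ENSMUSG00000024515, chr18:73639009-73703780, minus strand), the common partner of the receptor-activated SMADs, had the smallest fold between its highest and lowest library of the 10 genes as deposited. Its FPKM was 10.9, 10.5, 8.20 and 8.51 in rFGF4 mice 1, 2, 3 and 5 and 5.70, 6.14, 7.78 and 9.08 in vehicle mice 2, 3, 4 and 5. The rFGF4-treated mice were all above 3 of the vehicle-treated mice, and vehicle mouse 5 lay above rFGF4 mice 3 and 5. The log2 fold change was 0.37 with a standard error of 0.17 (9.52 ± 1.36 against 7.18 ± 1.55 FPKM, SD, n = 4 each, limma p = 0.0537, adjusted p = 0.918, exact permutation p = 0.114). Without vehicle mouse 5 it was 0.48 with an unadjusted p of 0.0184 (limma), and after scaling to a common median ratio it was 0.26.

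*Smad7* (ENSMUSG00000025880, chr18:75367529-75395935, plus strand), the inhibitory SMAD and a direct target of the pathway, had a small difference. Its FPKM was 7.73, 4.70, 4.004 and 4.87 in rFGF4 mice 1, 2, 3 and 5 and 3.55, 4.04, 4.17 and 5.15 in vehicle mice 2, 3, 4 and 5. Apart from rFGF4 mouse 1, the rFGF4-treated mice lay inside the vehicle range, and the log2 fold change was 0.25 with a standard error of 0.19 (limma p = 0.226, exact permutation p = 0.286). The ratio of *Smad7* to *Tgfbr1* was 0.667 ± 0.207 and 0.718 ± 0.111 in rFGF4- and vehicle-treated mice (SD, n = 4 each).

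**Figure D3:**
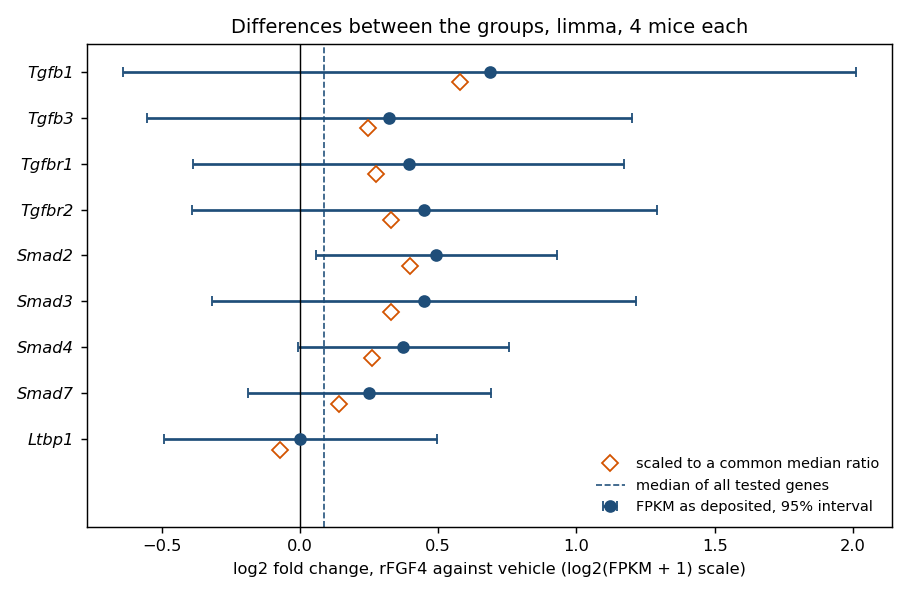
Log2 fold changes (rFGF4 against vehicle, 4 mice each) of the 9 tested genes with their 95% intervals from limma (filled circles) and after scaling to a common median ratio (open diamonds); the dashed line is the median of all tested genes. The interval of *Smad2*, from 0.057 to 0.93, is the only one that does not include 0.

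As a group, the tested genes lay above the rest without calls to match. Their median log2 fold change was 0.39, against 0.086 over all 15150 tested genes, and after scaling to a common median ratio it was 0.28 against -0.011. Without rFGF4 mouse 1 the median was 0.12 against 0.010, and without rFGF4 mouse 1 and vehicle mouse 5 it was 0.29 against 0.074. None of the 9 met the study's criteria (unadjusted p below 0.05, fold change at or above 1.5 or at or below 0.67) with the fold taken on the log2(FPKM + 1) scale, and 1.53% of all tested genes did, while none of the 9 had groups without overlap. This scale understates the change of low genes, and *Smad2* was past 1.5-fold by its group means (1.59) and met the criteria with a pseudocount of 0.1 (log2 fold change 0.67). No tested gene of the table passed an adjusted p of 0.05 (0%), while 700 had an unadjusted p under 0.05 (limma).

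FPKM is scaled to length, so levels can be set side by side. By mean over the 8 libraries the order was *Tgfbr2* (11.9 FPKM), *Smad3* (9.29), *Smad4* (8.35), *Tgfbr1* (7.51), *Tgfb1* (5.98), *Smad7* (4.78), *Smad2* (2.67), *Tgfb3* (1.31), *Ltbp1* (1.23) and *Tgfb2* (0.586). The range of every gene over the 8 libraries overlapped that of its neighbour in this order. Within a mouse some steps were steadier, as *Smad7* was above *Smad2* in 8 of 8 libraries and *Ltbp1* above *Tgfb2* in 8 of 8. Others were turned around in most mice, since *Smad3* was above *Smad4* in 3 of 8 libraries and *Tgfb1* above *Smad7* in 3 of 8. The highest library exceeded the lowest 9.30-fold for *Tgfb1*, 9.77-fold for *Tgfb3* and 8.71-fold for *Tgfb2*, but 1.91-fold for *Smad4* and 2.18-fold for *Smad7*. With mitochondrial transcripts taken out of the sum, the spread of *Tgfb1* was 10.0-fold, and with libraries scaled to a common median ratio it was 6.51-fold, with 6.84-fold for *Tgfb3* and 6.43-fold for *Tgfb2*.

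The ligand genes *Tgfb1* and *Tgfb3*, the receptor genes and *Smad3* had high correlations from mouse to mouse by r, *Smad3* less so by rank, and *Smad2* and *Ltbp1* had low ones. With each library centred on its median difference from the mean library, *Tgfb1* and *Tgfb3* had r = 0.97 and Spearman's rho = 0.95 over the 8 mice (adjusted exact permutation p = 0.00268 and 0.0268 over 36 pairs), and r = 0.92 without the 2 mice farthest from the median of *Tgfb1*. The 10 pairs among *Tgfb1*, *Tgfb3*, *Tgfbr1*, *Tgfbr2* and *Smad3* had r between 0.78 and 0.97, and between 0.64 and 0.93 without the 2 farthest mice. By rho, the 4 pairs of *Smad3* with these genes and the pair of *Tgfbr1* and *Tgfbr2* did not pass an adjusted p of 0.05. *Smad2* had r between -0.095 and 0.14 with the other genes, and between -0.80 and 0.29 without the 2 farthest mice. *Ltbp1* had r between -0.12 and 0.25, and between -0.23 and 0.55 without the 2 farthest mice. Of the 36 pairs, 10 had an adjusted exact p of r under 0.05 and 5 an adjusted p of rho under 0.05. Such values were not particular to these genes, since 205 to 759 of 13198 genes had r above 0.9 with each of the 5. These relations were calculated after the values had been seen.

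The mitochondrial share and the macrophage and fibroblast markers also varied widely between the mice. The relations below use log2(FPKM + 1) of genes and of marker sums, without centring. *Tgfb1* had r = -0.98 and rho = -0.98 with the mitochondrial percent (adjusted exact permutation p = 0.00174 and 0.00513 over 27 relations), and r = -0.97 without rFGF4 mouse 1 and vehicle mouse 5. All 9 tested genes had a negative r with the mitochondrial share, as did 75.3% of all tested genes. FPKM is divided by a total that includes mitochondrial reads, and the part of this in a negative r was not tested. Of the 9, 7 had an adjusted p of r under 0.05 and 5 an adjusted p of rho under 0.05. Those 7 had r at or below -0.80, as did 27.1% of all tested genes. The exceptions for r were *Smad2* (r = -0.41) and *Ltbp1* (r = -0.53), and for rho *Smad3* and *Smad7* as well. *Tgfb1* also had r = 0.97 and rho = 0.98 with the summed fibroblast and pericyte markers (adjusted exact permutation p = 0.00174 and 0.00513) and r = 0.98 without the same pair of mice.

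The summed FPKM of 7 macrophage markers was 1953, 999, 288 and 156 in rFGF4 mice 1, 2, 3 and 5 and 108, 920, 107 and 2812 in vehicle mice 2, 3, 4 and 5. That of 6 fibroblast and pericyte markers was 86.4, 46.3, 28.8 and 19.4 in the rFGF4-treated mice and 14.7, 20.2, 11.6 and 97.8 in the vehicle-treated mice. All 7 macrophage and all 6 fibroblast markers were highest in either rFGF4 mouse 1 or vehicle mouse 5, the mice in which *Tgfb1*, *Tgfb2*, *Tgfb3* and *Tgfbr2* were highest. Both cell types express TGF-beta ligands and receptors. With the macrophage sum, *Tgfb1* had r = 0.90 and rho = 0.95 (adjusted exact permutation p = 0.00563 and 0.00513). *Smad2* had r = 0.15 with the macrophage sum and 0.36 with the fibroblast sum. How many of all tested genes reach such an r with either sum was not calculated, and 759 genes had r above 0.9 with *Tgfb1* after centring. Within a mouse, the FPKM of genes and markers is divided by the same total. The part of macrophages and fibroblasts, and of the mitochondrial share, in the values of the TGF-beta genes was not tested.

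**Figure D4:**
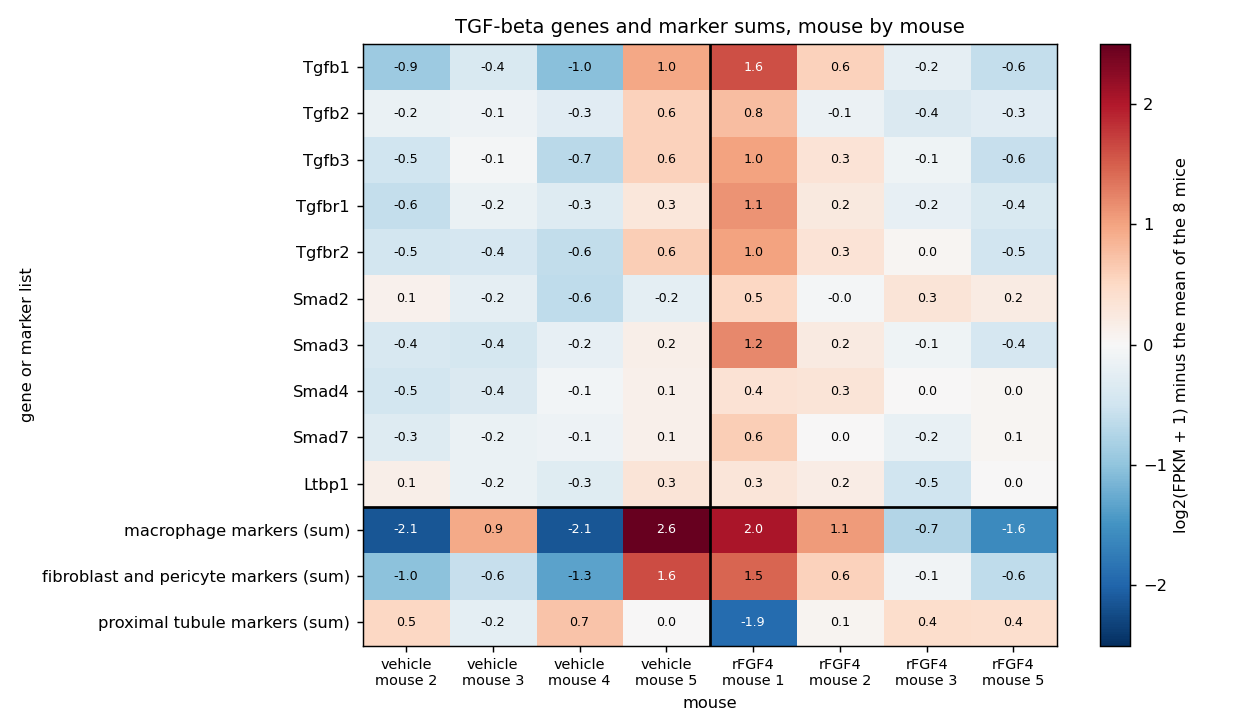
Heat map of log2(FPKM + 1) minus the mean of the 8 mice (color and printed value) for the 10 genes and, below the line, for the summed FPKM of 3 marker lists; columns are mice. rFGF4 mouse 1 and vehicle mouse 5 are high in the ligand genes, *Tgfbr2* and the macrophage and fibroblast markers, and rFGF4 mouse 1 alone is low in the proximal tubule markers.

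The other marker lists differed in which mice were high. Lymphocyte markers summed to 69.5 to 2655 FPKM in rFGF4-treated mice and 23.5 to 22406 FPKM in vehicle-treated mice, with all 7 genes highest in vehicle mouse 5 and the B-cell gene *Ms4a1* and the T-cell gene *Cd3d* among those listed at 0 in some libraries. Lymph node stroma markers summed to 4.97 to 10.6 and 2.83 to 59.2 FPKM, with all 5 genes highest in vehicle mouse 5 and *Glycam1* listed at 0 in 6 of 8 libraries. Smooth muscle and myofibroblast markers summed to 30.5 to 57.8 FPKM in rFGF4-treated and 25.4 to 105 FPKM in vehicle-treated mice, and endothelial markers to 27.3 to 37.2 and 30.9 to 47.1 FPKM, with 5 of 6 lower in rFGF4-treated mice and 1 of the 6 at an unadjusted p under 0.05. Podocyte markers summed to 68.3 to 106 and 48.5 to 91.7 FPKM, with all 6 genes higher in rFGF4-treated mice and 1 of them at an unadjusted p under 0.05, and collecting duct markers to 237 to 391 and 276 to 410 FPKM, with all 6 lower. Red blood cell markers summed to 120 to 2657 and 1139 to 4325 FPKM, with all 5 lower (median log2 fold change -1.97) and none at an unadjusted p under 0.05. Platelet and megakaryocyte markers summed to 2.20 to 7.33 and 2.27 to 12.4 FPKM, and immediate early genes, which respond to handling of tissue, to 70.6 to 252 and 55.0 to 185 FPKM, respectively. All 9 tested immediate early genes were higher in rFGF4-treated mice, 1 of them at an unadjusted p under 0.05 (limma), where 67.1% of all tested genes were higher and 4.62% were at that p.

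Beyond the 10 genes, 127 further genes of the TGF-beta system were listed by role, of which 115 were tested. Of these, 93 had higher and 22 had lower fitted means with rFGF4, where 67.1% of all tested genes were higher as deposited. After scaling to a common median ratio, 78 of the 115 were higher. An unadjusted p under 0.05 was found for 4, 3 higher and 1 lower, against 4.62% of all tested genes. None passed after adjustment, and the groups did not overlap for 3 of the 115, against 3.33% of all tested genes. The median log2 fold change was 0.22 as deposited and 0.11 after scaling to a common median ratio.

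Among 14 genes of the latent complex and its activation, 12 were higher. Their median log2 fold change was 0.14, but -0.036 when rFGF4 mouse 1 was left out. *Furin*, the protease that cuts the ligand precursors, was at 19.6, 19.0, 19.6 and 16.0 FPKM in rFGF4 mice 1, 2, 3 and 5 and at 13.5, 14.7, 14.9 and 13.9 FPKM in vehicle mice 2, 3, 4 and 5. The groups did not overlap, and the log2 fold change was 0.35 with a standard error of 0.11 (limma p = 0.0100, adjusted p = 0.918, exact permutation p = 0.0286), but 0.23 with p = 0.0985 after scaling of the libraries. The most abundant genes of this list were *Plau* (160.6 ± 59.4 against 170.6 ± 58.0 FPKM, SD, n = 4 each), a plasminogen activator, and *Thbs1* (21.8 ± 10.2 against 13.1 ± 3.27 FPKM), whose product can activate latent TGF-beta, and neither passed an unadjusted p of 0.05.

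Of 9 co-receptor and adaptor genes 7 were higher and none had an unadjusted p under 0.05, with *Dab2* (log2 fold change of -0.25) and *Strap* (0.10) the most abundant. Their median of 0.10 was -0.024 after scaling. Without rFGF4 mouse 1 and vehicle mouse 5, the *Dab2* log2 fold change was -0.69 and its unadjusted limma p was under 0.05. Of 11 extracellular antagonists and ligand-binding proteins, 8 were higher and 3 lower. The median log2 fold change was 0.23 in all mice, -0.11 without rFGF4 mouse 1 and 0.51 without vehicle mouse 5. *Fmod*, a small proteoglycan that binds TGF-beta, was lower (0.967 ± 0.607 against 2.23 ± 0.981 FPKM, SD, n = 4 each, log2 fold change -0.72, limma p = 0.0292, exact permutation p = 0.0857). It overlapped between the groups. The *Fmod* difference kept an unadjusted p under 0.05 after scaling of the libraries (-0.76) but not without rFGF4 mouse 1 and vehicle mouse 5 (-0.40). *Bgn* (0.39) and *Sostdc1* (-0.23) were the most abundant of this list.

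Among genes whose products act on the SMADs inside the cell, no call was made. Of 11 co-repressor and co-activator genes 7 were higher, with *Ski* at a log2 fold change of -0.50 and *Ncor1* at 0.33, and of 10 ubiquitin ligase and phosphatase genes 8 were higher, with *Stub1* at 0.00076 and *Wwp1* at 0.025. None of the genes in either list had an unadjusted p under 0.05. In the BMP and activin branch, 6 of 9 ligand and 8 of 11 receptor and SMAD genes were higher, again with none at that level. *Bmp4*, the most abundant of these ligands, was at 23.0 ± 2.42 FPKM against 15.1 ± 7.59 (SD, n = 4 each, exact permutation p = 0.0571), a mean that included 3.97 FPKM in vehicle mouse 4. *Bmp6* (0.30), *Acvr1b* (0.077) and *Bmpr1a* (0.28) were the other abundant genes of this branch.

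With all mice included, the target genes had the highest list medians. Of 17 matrix targets 16 were higher, their median log2 fold change being 0.50, and none had an unadjusted p under 0.05. *Ccn2* (connective tissue growth factor), a classical target in the kidney, was at 89.1, 87.1, 67.7 and 18.5 FPKM in rFGF4 mice 1, 2, 3 and 5 and at 22.1, 26.3, 13.7 and 52.9 FPKM in vehicle mice 2, 3, 4 and 5. The groups overlapped through rFGF4 mouse 5, which lay below 3 of the vehicle-treated mice, and the log2 fold change was 1.105 (limma p = 0.0833, exact permutation p = 0.143). *Sparc*, also a matrix gene, had a log2 fold change of 0.52 and was highest in rFGF4 mouse 1 (115 FPKM) and vehicle mouse 5 (84.2 FPKM), as was the sum of the 6 fibroblast and pericyte markers, all of which had higher fitted means in rFGF4-treated mice. The immediate early genes summed to 234, 252, 223 and 70.6 FPKM in rFGF4 mice 1, 2, 3 and 5, of which mouse 5 was lowest, as for *Ccn2*. The part of either in the values of the target genes was not tested. The median of the matrix targets was 0.073 without rFGF4 mouse 1, below that of the kinases and adaptors outside the SMAD route (0.12), and 0.97 without vehicle mouse 5.

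Of 14 regulator targets 13 were higher. Their median log2 fold change was 0.41, but 0.16 when rFGF4 mouse 1 was left out. *Bhlhe40*, a transcriptional repressor also tied to the circadian clock and to hypoxia, was at 51.2, 57.1, 43.1 and 31.2 FPKM in rFGF4 mice 1, 2, 3 and 5 and at 25.8, 18.9, 27.2 and 25.7 FPKM in vehicle mice 2, 3, 4 and 5. The groups did not overlap, and the log2 fold change was 0.86 with a standard error of 0.20 (limma p = 0.00279, adjusted p = 0.918, exact permutation p = 0.0286). It was 0.73 with libraries scaled to a common median ratio and 0.82 without rFGF4 mouse 1 and vehicle mouse 5, each with an unadjusted limma p under 0.05. *Id2*, which is repressed by TGF-beta in many epithelia, had a log2 fold change of 0.28. Of 12 genes of kinases and adaptors that carry TGF-beta signals without SMADs 11 were higher, with *Cdc42* at 0.31 and *Rhoa* at 0.35, and none had an unadjusted p under 0.05.

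**Figure D5:**
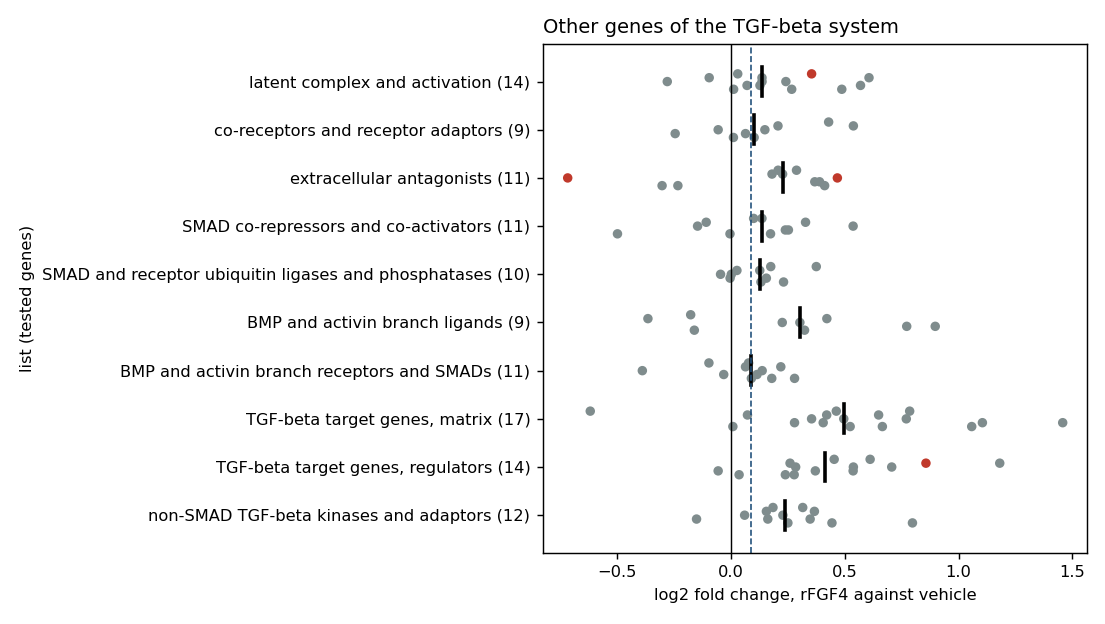
Log2 fold changes (rFGF4 against vehicle, 4 mice each) of the tested genes in 10 lists of the TGF-beta system, 1 point per gene, red where the unadjusted limma p was under 0.05; short black bars are list medians and the dashed line is the median of all tested genes. The matrix targets have the highest list median, 0.50, with no red point.

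By the KEGG annotation in the deposited table, 93 genes belong to TGF-beta signaling, including members of the 10 described above, and 70 of them were tested. Of these, 56 were higher and 14 lower (48 higher after scaling of the libraries), where 67.1% of all tested genes were higher as deposited. Their median log2 fold change was 0.19 (0.088 after scaling of the libraries and 0.075 when rFGF4 mouse 1 was left out). Groups did not overlap for 2 of the 70, against 3.33% of all tested genes. An unadjusted p under 0.05 was found for 5, 4 higher and 1 lower, against 4.62% of all tested genes. Among them were *Smad2*, *Fmod* and *Ppp2r1b* (a scaffold subunit of protein phosphatase 2A; log2 fold change 0.35, limma p = 0.0319, exact permutation p = 0.0286). *Ppp2r1b* did not overlap between the groups, and with the libraries scaled to a common median ratio its unadjusted limma p was 0.0233.

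By Pearson's r over the 8 centred libraries, among 13198 tested genes with a mean of at least 1 FPKM, the genes most like *Tgfb1* were *Itm2c* and *Mta2* (0.99 each), and 759 genes had r above 0.9 with it. Those most like *Tgfb3* were *Tuba1a* and *Gm14681*, with 749 genes above 0.9, those most like *Tgfbr2* were *Col15a1* and *Flii*, with 518, those most like *Tgfbr1* were *Sox4* and *Utp14a*, with 463, and those most like *Smad3* were *Nxph3* and *Snai1*, with 205. In contrast, 6 genes had r above 0.9 with *Smad2* (led by *Gm17690* and *Fzd8*), 7 with *Ltbp1* (*Lrch4* and *Gm7932*), 16 with *Smad4* (*Kitl* and *Kansl1*) and 24 with *Smad7* (*Fbxl20* and *Dph3*). The genes share the same 8 libraries, in which rFGF4 mouse 1 and vehicle mouse 5 stood apart for many genes.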

How the data were processed

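Poly(A) RNA of 8 kidneys was sequenced as paired ends. The submitters' processing notes list HISAT2 2.0, Bowtie 0.12.2, StringTie 1.3.0 and the build mm8. The authors deposited 1 table of FPKM per gene, with 0.0001 in place of 0, and columns of their own edgeR comparison (fold change, p and q), which were not used. No counts were given, so relative depth, 0.906 to 1.12 of vehicle mouse 2, was estimated from shared low values. Of the Ensembl identifiers, 99.5% were in GENCODE M21 (GRCm38), from which positions were taken.

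Without counts, log2(FPKM + 1) was compared with limma 3.58.1 in R 4.3.3 (variance trend, Benjamini-Hochberg adjustment), over genes with at least 0.5 FPKM in 4 or more libraries, and by two-sided exact permutation tests over all 70 assignments. The fit was tested on simulated data. The genes and lists were chosen with earlier results of these data known. Named were all 10 genes and, in each list, those with an unadjusted p under 0.05 and the 2 of highest mean FPKM; a few genes that this rule names are not reported here. Alternatives comprised a pseudocount of 0.1, no filter, a stricter filter (mean of at least 1 FPKM), each mouse left out, a block, scaling to a common median ratio, removal of mitochondrial transcripts, array weights and no trend. Figures used matplotlib 3.10.9.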

Additional observations from a re-analysis of the deposited data

Results flagged for a closer look

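With a gap test for groups of 4 (the distance of the extreme mouse to its neighbour over the range of the group, against Dixon's critical value), 4 of 64 groups held a mouse that stood apart, where chance gives about 1 in 20, or 3.2. *Tgfbr2* was far higher in vehicle mouse 5 than in the other vehicle-treated mice, with a gap of 0.835 of the range. The summed proximal tubule markers were far lower in rFGF4 mouse 1 than in the other rFGF4-treated mice, with a gap of 0.840. Among the rFGF4-treated mice, the summed immediate early genes were lowest in mouse 5, with a gap of 0.904. Among the vehicle-treated mice, the summed FPKM of the library was lowest in mouse 5, with a gap of 0.840. No cause was tested.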

How the results depend on the processing

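The log2 fold changes of *Tgfb1*, *Tgfbr1*, *Tgfbr2*, *Smad3* and *Smad7* kept their sign, with an unadjusted p over 0.05, under every alternative run. Without rFGF4 mouse 1 and vehicle mouse 5 together they were 0.70, 0.24, 0.47, 0.25 and 0.17, and that of *Tgfb3* was 0.29. The cause of the changes below was not tested.

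*Smad2* lost its unadjusted p under 0.05 after scaling to a common median ratio (0.40), with array weights (0.43) and without rFGF4 mouse 1 and vehicle mouse 5 together (0.41). *Smad4* gained one with no filter (0.37), without mitochondrial transcripts (0.46), with array weights (0.41) and without that pair (0.42). *Ltbp1* changed sign with a pseudocount of 0.1 (-0.018) and after scaling (-0.073). Genes with an unadjusted p under 0.05 among the 9 numbered 1, but 2 with no filter or without mitochondrial transcripts and 0 after scaling, and 1 passed the study's threshold with a pseudocount of 0.1. Among the listed pathway genes the count was 4, but 2 after scaling, 8 without mitochondrial transcripts, 24 with array weights and 8 without the pair.
When single mice were left out, the log2 fold change ranged from 0.36 to 0.61 for *Smad2* (an unadjusted p of 0.0131 to 0.0853), from 0.29 to 0.48 for *Smad4* (0.0184 to 0.143) and from -0.10 to 0.17 for *Ltbp1*. The lowest values of the other genes came without rFGF4 mouse 1 (*Tgfb1* 0.27, *Tgfb3* 0.044, *Tgfbr1* 0.081, *Tgfbr2* 0.19, *Smad3* 0.12, *Smad7* 0.085). The count of the 9 with an unadjusted p under 0.05 ranged from 0 to 1, that past the study's threshold from 0 to 1, and that of the listed pathway genes from 3 to 15, the highest without vehicle mouse 5. The difference in the *Tgfb1* share of ligand FPKM ranged from 5.003 to 6.70 percentage points and that in the *Tgfb2* share from -5.18 to -3.80. The exact p rose above 0.05 without any 1 rFGF4-treated mouse for *Tgfb1* and without any 1 vehicle-treated mouse for *Tgfb2*. Of all tested genes, 232 passed the study's threshold, with 188 to 580 when a mouse was left out (580 without rFGF4 mouse 5, 434 without vehicle mouse 5) and 496 with array weights. The 700 genes with an unadjusted p under 0.05 became 431 to 1430 (1430 without rFGF4 mouse 5, 431 without rFGF4 mouse 2), 1228 with no filter, 1129 without mitochondrial transcripts and 1817 with array weights.

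No likeness was seen between mice that share a number across the groups. Their deviations had r of -0.23 (mouse 2), -0.16 (mouse 3) and -0.39 (mouse 5), and none of these rFGF4-treated mice was most like its own number. With so few shared numbers, such r values cannot tell whether the mice were paired. Only the numbers 2, 3 and 5 occur in both groups. With the number as a block, rFGF4 mouse 1 and vehicle mouse 4 therefore add nothing to the fitted difference. In that fit the log2 fold change was 0.28 for *Smad2*, -0.13 for *Tgfb3* and -0.20 for *Ltbp1*. It was also smaller for *Tgfb1* (0.030), *Tgfbr1* (0.038), *Tgfbr2* (0.056), *Smad3* (0.13) and *Smad7* (0.082), and the median of the 9 was 0.056. List medians below 0 were those of the antagonists (-0.27), latent complex and activation (-0.24), matrix targets (-0.18), BMP and activin ligands (-0.090), co-receptors and adaptors (-0.089) and co-repressors and co-activators (-0.026). Those above 0 were of the regulator targets (0.11), kinases and adaptors outside the SMAD route (0.11), ubiquitin ligases and phosphatases (0.072), KEGG genes (0.038) and BMP and activin receptors and SMADs (0.016). Under the block 0 of the 9 and 394 of all tested genes had an unadjusted p under 0.05, and 263 genes passed the study's threshold.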
